A study of Mus musculus with 9 samples.

Results

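The 10 genes described here encode 4 death domain or TNF-family receptors (Fas, Tnfrsf1a, Tnfrsf1b and Tnfrsf10b), 2 adaptors (Fadd and Tradd), the initiator caspase Casp8, its catalytically inactive relative Cflar, and 2 kinases (Ripk1 and Ripk3). They were taken as a named list from the 54752 Ensembl gene identifiers of a count table, and all 10 were found by their identifiers and passed the filter on low counts, Fas and Tnfrsf1b through the libraries labelled knockout. The RNA came from B16F10, a melanoma line of the mouse, grown in DMEM with 10% FBS and sequenced from stranded poly(A) libraries. The 9 libraries comprised 3 from cells with the guide Tada2bsg1 (guide 1) and 3 from cells with the guide Tada2bsg2 (guide 2), both labelled as Tada2b knockout, and 3 from cells with GFPsg, a guide named for GFP, labelled as wild type. The labels name no drug, cytokine or time, and do not say whether each group was a pool of edited cells or 1 clone, nor which Cas9 or vector was used. They also do not say whether replicates were separate cultures, so every p-value rests on the spread among these libraries alone, and that spread may be technical.

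Death receptors are cell-surface proteins that bind ligands of the TNF family. Fas and the TRAIL receptor encoded by Tnfrsf10b recruit FADD through their death domains, and FADD gathers caspase-8, which starts apoptosis. TNF receptor 1, encoded by Tnfrsf1a, instead recruits TRADD and RIPK1 into a complex that signals to NF-kB and MAP kinases, while TNF receptor 2, encoded by Tnfrsf1b, has no death domain and binds TRAF2. The protein cFLIP, from Cflar, pairs with caspase-8 and limits its activation, and where caspase-8 is inactive RIPK1 and RIPK3 can drive necroptosis through MLKL. The product of Tada2b belongs to SAGA, a coactivator complex, where it works with the enzyme that acetylates histone H3 at promoters.

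The targeted gene was read first. Tada2b was counted at 32.3, 33.3 and 32.7 CPM (counts per 1 M counts, M for mega, computed from library sizes scaled by the trimmed mean of M-values, TMM) with guide 1, at 29.0, 26.0 and 25.9 CPM with guide 2 and at 28.0, 25.2 and 26.6 CPM in GFPsg. Its mRNA was thus not lower in the libraries labelled knockout. It was called higher with both guides together (log2 change 0.16, edgeR adjusted p = 0.0101) and with guide 1 (0.30, edgeR adjusted p = 0.000213). With guide 2 it was not called (0.02, edgeR adjusted p = 0.806). Protein was not analysed here. Library totals were 70.6 to 76.9 M counts. The summed level of 7 melanocyte markers was 4973 to 5210 CPM with guide 1, 7032 to 7274 CPM with guide 2 and 20322 to 21118 CPM in GFPsg, so the labelled cell type held in every group while all 7 markers were called lower in the libraries labelled knockout. Summed markers of leukocytes (10 genes, of which Ptprc and Itgam were at 0 in every library) lay at 6.94 to 7.37 CPM with guide 1, 6.16 to 6.37 CPM with guide 2 and 3.61 to 3.93 CPM in GFPsg. Those of fibroblasts and endothelium (8 genes) lay at 13.4 to 14.2 CPM with guide 1, 12.7 to 14.96 CPM with guide 2 and 6.16 to 8.74 CPM in GFPsg. Of the 3 that could be tested, Pdgfrb carried the higher sum (11.8 CPM with guide 1, 12.02 CPM with guide 2 and 4.36 CPM in GFPsg), while Pdgfra had a log2 change of -0.04 and Vwf one of -2.11. The markers of epithelium (6 genes) summed to 0.595 to 0.726 CPM with guide 1, 0.572 to 0.684 CPM with guide 2 and 1.05 to 1.304 CPM in GFPsg. The part of these marker shifts in the results was not tested.

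The main comparison, of both guides' mean with GFPsg, asked which of the 10 genes differed in cells labelled Tada2b knockout. Of the 10, 7 were called. Tnfrsf1b, Tnfrsf1a, Ripk1 and Tnfrsf10b rose, Tradd, Cflar and Casp8 fell, and Fas, Fadd and Ripk3 were not called. A gene was called where its adjusted p in the quasi-likelihood F test of edgeR was under 0.05, with Benjamini-Hochberg adjustment over all 17931 genes tested. By that rule 51.0% of all genes tested were called, 24.7% higher and 26.3% lower, so 4 higher and 3 lower of 10 is near the background in count. The median log2 change of the 10 genes was 0.05, against -0.02 over all genes tested. With libraries scaled by their totals alone, 5914 genes were called higher and 3436 lower, against 4426 and 4715 with TMM, and 4 of the 10 genes were then called higher and 2 lower. In bulk RNA, fewer cells of a type and less RNA per cell cannot be told apart.

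**Figure D1:**
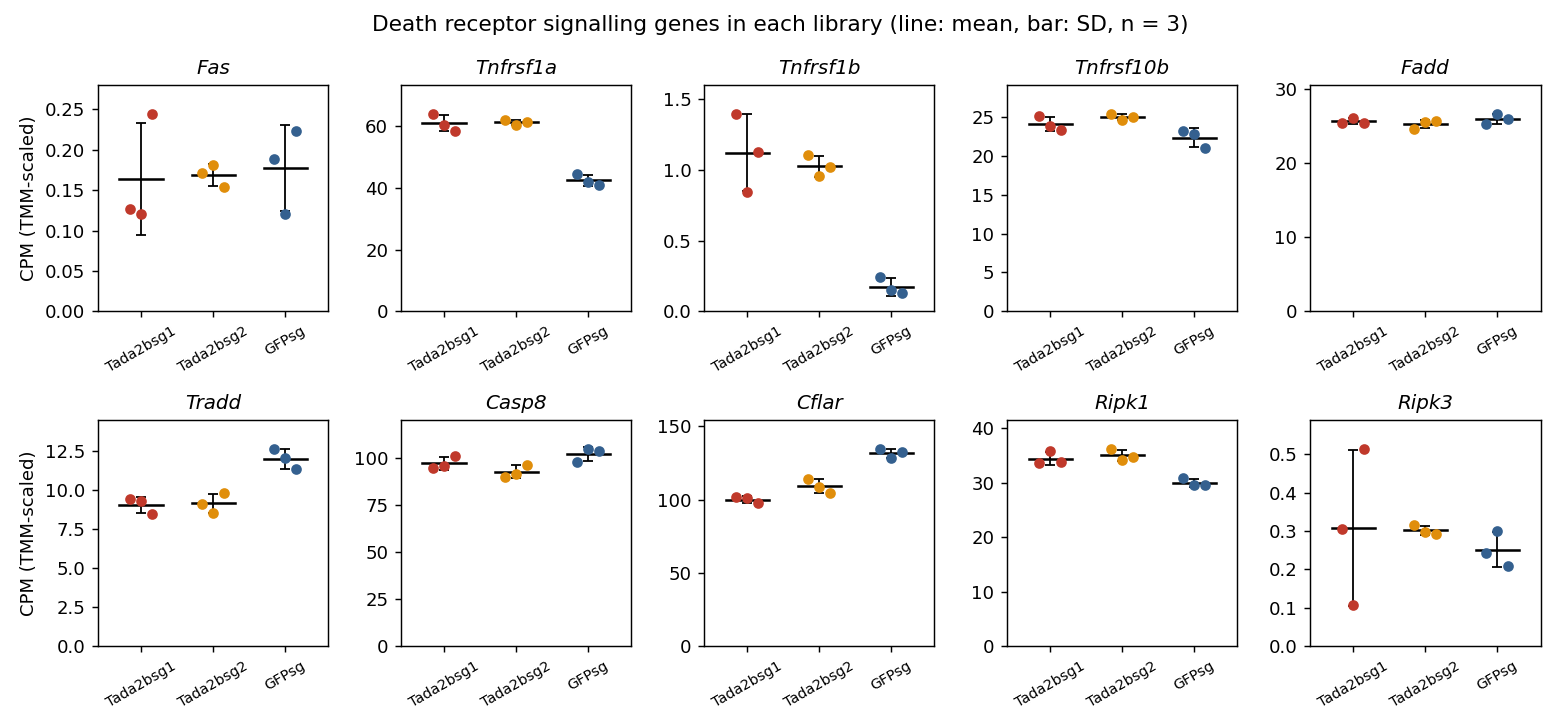
Each panel shows 1 of the 10 genes, with CPM on a linear axis starting at 0 and 1 point for each of the 9 libraries in the groups Tada2bsg1, Tada2bsg2 and GFPsg (line, mean; bar, SD; n = 3). All 6 libraries labelled knockout lie above the 3 GFPsg libraries for Tnfrsf1a, Tnfrsf1b, Tnfrsf10b and Ripk1, and below them for Tradd and Cflar.

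Among the receptors, the largest change was in Tnfrsf1b (ENSMUSG00000028599; mm10 chromosome 4, 145213463 to 145246870, minus strand), a receptor found mainly on immune and endothelial cells. Tnfrsf1b was counted at 1.39, 0.847 and 1.13 CPM with guide 1, at 1.10, 0.955 and 1.02 CPM with guide 2 and at 0.243, 0.150 and 0.126 CPM in GFPsg. These were 110, 63 and 88 reads with guide 1, 84, 74 and 73 reads with guide 2 and 18, 10 and 9 reads in GFPsg. The lowest library labelled knockout was well above the highest GFPsg library, although the gene was low everywhere. It reached the filter's minimum in 2 of 3 GFPsg libraries and in all 6 libraries labelled knockout, so it passed the filter through the libraries labelled knockout. It rose by 2.61 ± 0.27 on the log2 scale (SE), a 6.12-fold difference, with an edgeR adjusted p of 3.18e-07. Leukocyte markers, whose summed level also stood higher with both guides, had 4 genes that could be tested, of which 3 were called higher and 1 lower. Cx3cr1, among the higher, reached the filter's minimum in no GFPsg library and so had to differ.

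TNF receptor 1 was the most abundant receptor of the list. Tnfrsf1a (ENSMUSG00000030341; chromosome 6, 125349362 to 125362484, plus strand) was counted at 63.8, 60.5 and 58.5 CPM with guide 1, at 62.0, 60.3 and 61.2 CPM with guide 2 and at 44.4, 42.0 and 40.9 CPM in GFPsg. Every library labelled knockout stood above every GFPsg library, and the ranges of the guides overlapped. Its log2 change was 0.53 ± 0.04 (SE; 1.44-fold; edgeR adjusted p = 6.05e-09).

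Tnfrsf10b (ENSMUSG00000022074; chromosome 14, 69767472 to 69784411, plus strand), the single TRAIL receptor with a death domain in the mouse, was counted at 25.1, 23.8 and 23.4 CPM with guide 1, at 25.3, 24.6 and 25.0 CPM with guide 2 and at 23.3, 22.8 and 20.97 CPM in GFPsg. The lowest guide 1 library and the highest GFPsg library differed by a small margin. Its log2 change of 0.14 ± 0.05 (SE) passed the test with an edgeR adjusted p of 0.0227, and without GFPsg replicate 3, its lowest library, the change was 0.10 and the adjusted p 0.118.

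Fas was barely expressed. Fas (ENSMUSG00000024778; chromosome 19, 34290666 to 34327772, plus strand) had 10, 9 and 19 reads with guide 1, 13, 14 and 11 reads with guide 2 and 14, 8 and 16 reads in GFPsg, and each group summed to 38 reads. These counts correspond to 0.121 to 0.244 CPM with guide 1, 0.153 to 0.181 CPM with guide 2 and 0.120 to 0.224 CPM in GFPsg. The groups overlapped fully. The log2 change was -0.10 with a 95% confidence interval of -0.88 to 0.68 (edgeR adjusted p = 0.847), so that neither a rise nor a fall within those bounds was detectable at this depth.

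The promoters of 4 genes are shown because 3 of them belong to genes that rose (Tnfrsf1b, Tnfrsf1a and Ripk1) and the fourth to a gene that fell while holding one of the same motifs (Cflar). Windows run from 250 bases before to 50 bases after a transcription start in RefSeq on GRCm38.p6, the build also called mm10, and are written 5′ to 3′ on the gene's strand. RefSeq promoters were matched for 8 of the 10 genes in 9 windows, and Tnfrsf10b and Tradd had none in the table used. Capitals mark matches on either strand to 3 motifs. They are the core of the interferon-stimulated response element (GAAA, any 2 bases, GAAA), the gamma-activated site bound by STAT proteins (TTC, any 3 bases, GAA) and a loose NF-kB site (GGG, any 5 bases, CC). The first was found in 3.44%, the second in 8.3% and the third in 50.79% of 32851 RefSeq windows of the same length. Matches may overlap, as they do in Tnfrsf1b and Ripk1.
Tnfrsf1b, chr4:145246821-145247120, minus strand: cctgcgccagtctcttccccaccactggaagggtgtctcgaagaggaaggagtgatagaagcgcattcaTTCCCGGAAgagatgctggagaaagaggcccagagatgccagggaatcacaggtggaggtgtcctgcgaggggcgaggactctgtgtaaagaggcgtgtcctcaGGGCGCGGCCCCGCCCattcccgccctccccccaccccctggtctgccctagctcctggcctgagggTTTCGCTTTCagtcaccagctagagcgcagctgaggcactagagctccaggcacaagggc
Tnfrsf1a, chr6:125349473-125349772, plus strand: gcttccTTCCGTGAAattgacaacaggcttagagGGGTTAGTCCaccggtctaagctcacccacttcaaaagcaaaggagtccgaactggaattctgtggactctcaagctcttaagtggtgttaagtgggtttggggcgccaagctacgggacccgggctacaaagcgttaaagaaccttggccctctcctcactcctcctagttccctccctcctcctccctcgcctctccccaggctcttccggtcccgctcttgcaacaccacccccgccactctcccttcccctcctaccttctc
Ripk1, second of 2 windows, chr13:34002624-34002923, plus strand: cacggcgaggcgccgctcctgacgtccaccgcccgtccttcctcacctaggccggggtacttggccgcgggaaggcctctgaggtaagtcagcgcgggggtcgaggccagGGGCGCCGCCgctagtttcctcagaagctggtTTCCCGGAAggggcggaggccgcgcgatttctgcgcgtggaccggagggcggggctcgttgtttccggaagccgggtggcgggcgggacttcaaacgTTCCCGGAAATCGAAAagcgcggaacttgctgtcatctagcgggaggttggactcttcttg
Cflar, chr1:58711241-58711540, plus strand: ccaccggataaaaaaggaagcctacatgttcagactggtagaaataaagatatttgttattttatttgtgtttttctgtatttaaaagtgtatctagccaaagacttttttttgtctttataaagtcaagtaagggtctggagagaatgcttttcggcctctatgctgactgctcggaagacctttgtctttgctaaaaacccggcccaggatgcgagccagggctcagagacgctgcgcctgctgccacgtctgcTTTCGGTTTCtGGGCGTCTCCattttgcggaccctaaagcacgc

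The interferon core was present in the Tnfrsf1b window with its first base 10 bases before the start, in the second Ripk1 window 5 bases before it and in the Cflar window at base 7 after it. Tnfrsf1b also held a gamma-activated site at -181 and 3 overlapping NF-kB matches that began at -77, -76 and -71. Tnfrsf1a held a gamma-activated site at -244 and an NF-kB match at -216. The second Ripk1 window held gamma-activated sites at -108 and -11, of which the second shares bases with the interferon core, and an NF-kB match at -140, while its first window held none of the 3 motifs. Among the windows not printed, Fas held a gamma-activated site at -93 and 4 NF-kB matches, Fadd held 2 NF-kB matches, and Casp8 and Ripk3 held none, where letters that match on both strands count once per strand. The genes that hold the interferon core thus include some that rose and one that fell, and a match of letters is no measure of binding.

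The 2 adaptors differed. Tradd (ENSMUSG00000031887; chromosome 8, 105258286 to 105264609, minus strand), which links TNF receptor 1 to RIPK1 and TRAF2, was counted at 9.44, 9.29 and 8.47 CPM with guide 1, at 9.12, 8.56 and 9.81 CPM with guide 2 and at 12.6, 12.1 and 11.3 CPM in GFPsg. Every library labelled knockout lay below every GFPsg library. Tradd fell by 0.40 on the log2 scale (SE 0.06), to 0.758 of its GFPsg level, with an edgeR adjusted p of 5.23e-05.

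Fadd (ENSMUSG00000031077; chromosome 7, 144577318 to 144582463, minus strand), which bridges receptors to caspase-8, was counted at 25.4, 26.1 and 25.4 CPM with guide 1, at 24.6, 25.6 and 25.7 CPM with guide 2 and at 25.3, 26.6 and 26.0 CPM in GFPsg. The 3 groups overlapped. Its log2 change was -0.03 with a 95% confidence interval of -0.11 to 0.06 (edgeR adjusted p = 0.608), which bounds any difference more tightly than for Fas. Fadd shares 239 exon bases with the antisense gene Faddos, which never exceeded 27 reads in a library.

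Casp8 and Cflar are neighbours, 36489 bases apart on the plus strand of chromosome 1, and had the highest CPM of the 10 genes. Cflar (ENSMUSG00000026031; 58711508 to 58758884) was counted at 101.8, 100.9 and 97.6 CPM with guide 1, at 114.1, 108.6 and 104.6 CPM with guide 2 and at 134.5, 128.4 and 132.5 CPM in GFPsg. All 6 libraries labelled knockout lay below the lowest GFPsg library. Cflar fell by 0.33 on the log2 scale (SE 0.03), to 0.793 of its GFPsg level, with an edgeR adjusted p of 3.72e-07.

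Casp8 (ENSMUSG00000026029; 58795374 to 58847503) was counted at 94.9, 95.8 and 101.2 CPM with guide 1, at 89.8, 91.6 and 96.5 CPM with guide 2 and at 97.9, 104.7 and 103.9 CPM in GFPsg. One guide 1 library lay above the lowest GFPsg library, so the ranges overlapped. The log2 change of -0.11 ± 0.04 (SE) was called with an edgeR adjusted p of 0.0239. That call was lost in 8 of 16 alternatives, among them scaling by library totals alone, where the change was -0.02 with an adjusted p of 0.629. It was also lost without GFPsg replicates 2 or 3, guide 1 replicates 1 or 2, or guide 2 replicates 1 or 2, with changes of -0.10 to -0.08 and adjusted p of 0.0608 to 0.169.

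The kinases were far apart in level. Ripk1 (ENSMUSG00000021408; chromosome 13, 34002363 to 34037147, plus strand), the kinase and scaffold of the TNF receptor 1 complex, was counted at 33.6, 35.9 and 33.8 CPM with guide 1, at 36.1, 34.2 and 34.7 CPM with guide 2 and at 30.9, 29.5 and 29.6 CPM in GFPsg. The groups labelled knockout stood above GFPsg with no overlap. Ripk1 rose by 0.21 ± 0.04 on the log2 scale (SE; 1.16-fold; edgeR adjusted p = 0.000337). It shares 241 exon bases with Serpinb6a on the opposite strand, which was also called higher (log2 change 0.39, edgeR adjusted p = 8.59e-07) and averaged 186.6 ± 8.84 CPM with guide 1, 169.1 ± 10.4 CPM with guide 2 and 135.8 ± 4.88 CPM in GFPsg (SD, n = 3). The strand setting of the counting is not given in the sources used here, so the part of those shared bases in Ripk1 was not tested. Ripk1 also shares 511 exon bases with the processed pseudogene Gm17084 on the same strand, whose highest count was 0. The part of that overlap in the level of Ripk1 was not tested either.

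Ripk3 (ENSMUSG00000022221; chromosome 14, 55784995 to 55788865, minus strand), the kinase that phosphorylates MLKL in necroptosis, had 24, 8 and 40 reads with guide 1, 24, 23 and 21 reads with guide 2 and 18, 20 and 15 reads in GFPsg. The guide 1 libraries spanned the values of all the others. Its log2 change was 0.29 with a 95% confidence interval of -0.52 to 1.09 (edgeR adjusted p = 0.568).

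**Figure D2:**
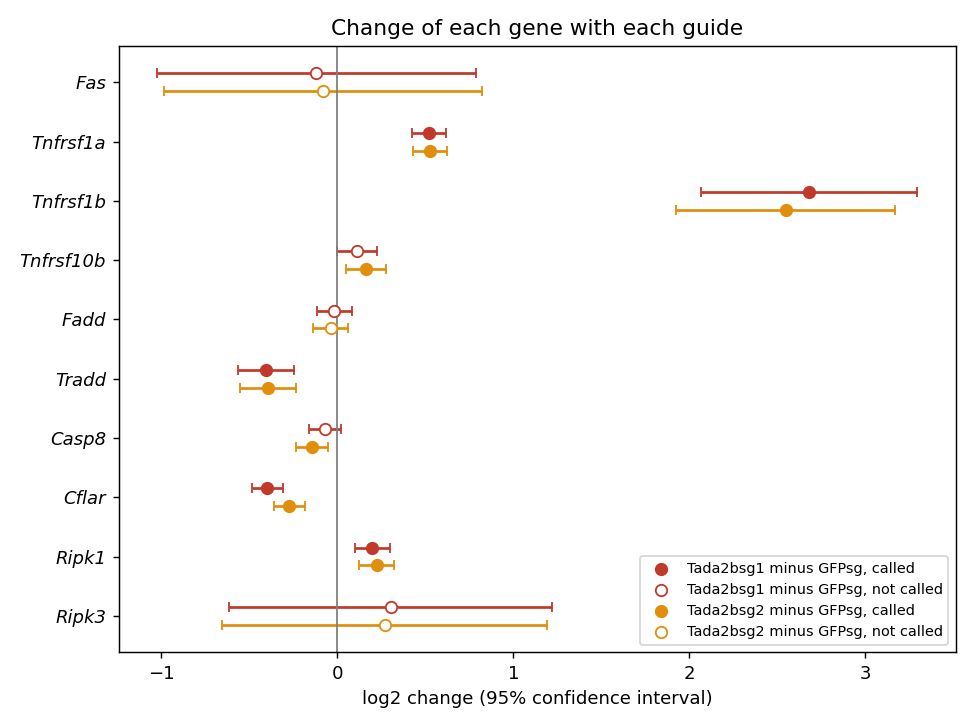
Points give the log2 change of each gene with Tada2bsg1 and with Tada2bsg2 against GFPsg, and bars the 95% confidence intervals of the edgeR fit. Tnfrsf1b stands apart at 2.68 with guide 1 and 2.55 with guide 2, while the intervals of Fas and Ripk3 are the widest and span 0.

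Each guide was next set against GFPsg on its own. Both comparisons share the GFPsg libraries, so they are not independent of each other. With guide 1, 3 genes were called higher (Tnfrsf1a, Tnfrsf1b and Ripk1) and 2 lower (Tradd and Cflar), where 48.4% of all genes tested were called, 23.8% higher and 24.5% lower. With guide 2, 4 genes were called higher and 3 lower, the same 7 as with both guides together, where 45.1% of all genes tested were called, 22.1% higher and 23.0% lower. The log2 change of Tnfrsf1a was 0.52 with guide 1 and 0.53 with guide 2, that of Tnfrsf1b 2.68 with guide 1 and 2.55 with guide 2, and that of Ripk1 0.20 with guide 1 and 0.22 with guide 2. Tradd had -0.41 with guide 1 and -0.39 with guide 2, and Cflar -0.40 with guide 1 and -0.27 with guide 2. All of these were called with each guide. Tnfrsf10b had 0.11 with guide 1 (edgeR adjusted p = 0.104) and 0.16 with guide 2 (edgeR adjusted p = 0.0215). Casp8 had -0.07 with guide 1 (edgeR adjusted p = 0.191) and -0.14 with guide 2 (edgeR adjusted p = 0.0125).

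Whether the guides differed was tested directly, as guide 2 minus guide 1. None of the 10 genes was called by edgeR in the fit with no replicate block or by DESeq2, where edgeR called 3.68% of all genes tested, 2.66% higher and 1.02% lower, and 1 of the 10 had an unadjusted p under 0.05. That gene was Cflar, at a log2 difference of 0.12 ± 0.04 (SE), with a 95% confidence interval of 0.04 to 0.21 and an edgeR adjusted p of 0.123. With a replicate block in the fit, Cflar was called (edgeR adjusted p = 0.0199). All 3 guide 2 libraries of Cflar lay above all 3 guide 1 libraries. For Tnfrsf10b the interval of the difference was -0.06 to 0.16 and for Casp8 it was -0.16 to 0.02, so neither gene that was called with guide 2 alone was shown to differ between the guides.

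Levels were then compared between genes, which needs counts per length. On the scale of reads per kilobase of merged exons and per 1 M scaled counts (RPKM), Casp8 was the highest of the 10 genes in every group, at 33.6 ± 1.19 with guide 1, 32.0 ± 1.199 with guide 2 and 35.3 ± 1.28 in GFPsg (SD, n = 3). Tnfrsf1a came next, at 23.5 ± 1.03 RPKM with guide 1, 23.6 ± 0.322 RPKM with guide 2 and 16.4 ± 0.686 RPKM in GFPsg. Cflar followed at 7.90 ± 0.174 RPKM with guide 1, 8.61 ± 0.376 RPKM with guide 2 and 10.4 ± 0.246 RPKM in GFPsg. These 3 genes did not overlap with each other within a group. Fadd stood at 6.57 RPKM with guide 1, 6.48 RPKM with guide 2 and 6.65 RPKM in GFPsg, and Tradd at 4.86 RPKM with guide 1, 4.91 RPKM with guide 2 and 6.44 RPKM in GFPsg.

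The order below Fadd was not the same in every group. In GFPsg, Fadd and Tradd overlapped, and Tnfrsf10b (4.10 RPKM) and Ripk1 (3.59 RPKM) followed without overlap. With guide 1, Tradd, Tnfrsf10b (4.42 RPKM) and Ripk1 (4.13 RPKM) overlapped with their neighbours, and with guide 2 Tradd overlapped with Tnfrsf10b (4.58 RPKM) but Ripk1 (4.20 RPKM) stood below. The lowest 3 genes were Tnfrsf1b, Ripk3 and Fas in each group. Tnfrsf1b was the highest of these with guide 1 (0.294 RPKM), where it overlapped with Ripk3 and Ripk3 with Fas, and with guide 2 (0.269 RPKM), where it overlapped with neither. It was the lowest of all in GFPsg (0.0453 RPKM), where it overlapped with Fas (0.0861 RPKM), and Fas with Ripk3 (0.109 RPKM).

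The levels and part of their order depend on the length used. Cflar has 12669 bases of merged exons, and per length of its longest coding transcript it stood at 15.2 with guide 1, 16.6 with guide 2 and 20.1 RPKM in GFPsg, while Tnfrsf1a stood at 28.2 RPKM with guide 1, 28.4 RPKM with guide 2 and 19.7 RPKM in GFPsg. Tnfrsf10b stood at 7.58 RPKM with guide 1, 7.86 RPKM with guide 2 and 7.03 RPKM in GFPsg on that scale. In GFPsg the mean of Cflar then stood next to that of Tnfrsf1a and above it. Tnfrsf10b then stood above Fadd (6.57 RPKM with guide 1, 6.48 RPKM with guide 2 and 6.65 RPKM in GFPsg) in each group, and Tradd at 7.12 RPKM stood above Fadd in GFPsg. Ripk1 at 5.32 RPKM with guide 1 and 5.41 RPKM with guide 2 stood beside Tradd at 5.37 RPKM with guide 1 and 5.42 RPKM with guide 2. Casp8 remained the highest by mean and Ripk3, Fas and Tnfrsf1b the lowest 3 on either length.

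**Figure D3:**
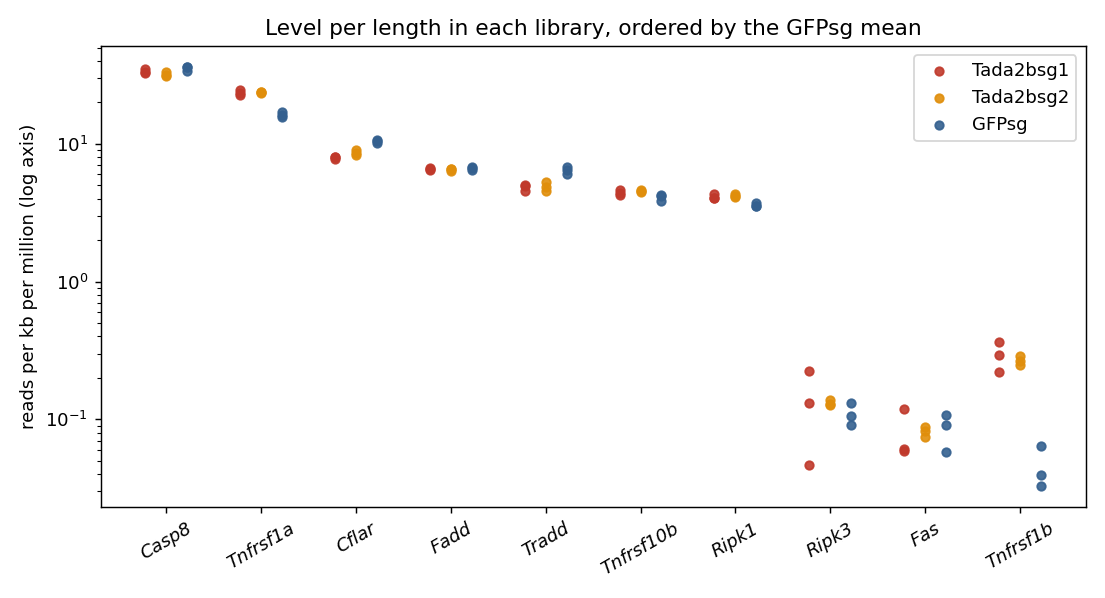
Reads per kilobase of merged exons and per 1 M scaled counts are shown on a log axis for each library, with genes ordered by their GFPsg mean and groups by colour. The upper 7 genes lie above 3 RPKM in every library, and Ripk3, Fas and Tnfrsf1b lie below 0.4 RPKM.

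Ratios within a library place partner proteins' mRNAs side by side, as a description with no test. The Cflar to Casp8 ratio per length was 0.245, 0.241 and 0.220 with guide 1, 0.290, 0.271 and 0.248 with guide 2 and 0.314, 0.280 and 0.291 in GFPsg. The guide 1 libraries lay below all GFPsg libraries, and 1 guide 2 library lay within the GFPsg range. The level of this ratio is set by the length taken, and per longest coding transcript it averaged 0.405 with guide 1, 0.464 with guide 2 and 0.508 in GFPsg. The ratio of Tnfrsf1b to Tnfrsf1a was 0.0148, 0.00950 and 0.0131 with guide 1, 0.0121, 0.0107 and 0.0113 with guide 2 and 0.00372, 0.00242 and 0.00209 in GFPsg. Both guides lay above GFPsg in every library, while TNF receptor 2 mRNA remained a small share of that of TNF receptor 1. The Ripk3 to Ripk1 ratio averaged 0.0330 ± 0.0222 with guide 1, 0.0314 ± 0.000556 with guide 2 and 0.0305 ± 0.00579 in GFPsg (SD, n = 3), and those ranges overlapped.

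The sizes of change were also set beside those of all genes tested, whose median was 0.24 on the log2 scale. Tnfrsf1b, Tnfrsf1a, Tradd, Cflar and Ripk3 exceeded that median, of which Ripk3 was not called, and the other 5 genes lay below it. By the range of CPM alone, 6 of the 10 genes had no overlap between the 6 libraries labelled knockout and the 3 GFPsg libraries, 4 above and 2 below, where 44.0% of all genes tested had none, 21.8% above and 22.2% below. When the test asked for a change beyond 1.2-fold, with edgeR's glmTreat chosen after seeing the data, Tnfrsf1a, Tnfrsf1b, Tradd and Cflar remained called, and Tnfrsf10b, Casp8 and Ripk1 did not.

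**Figure D4:**
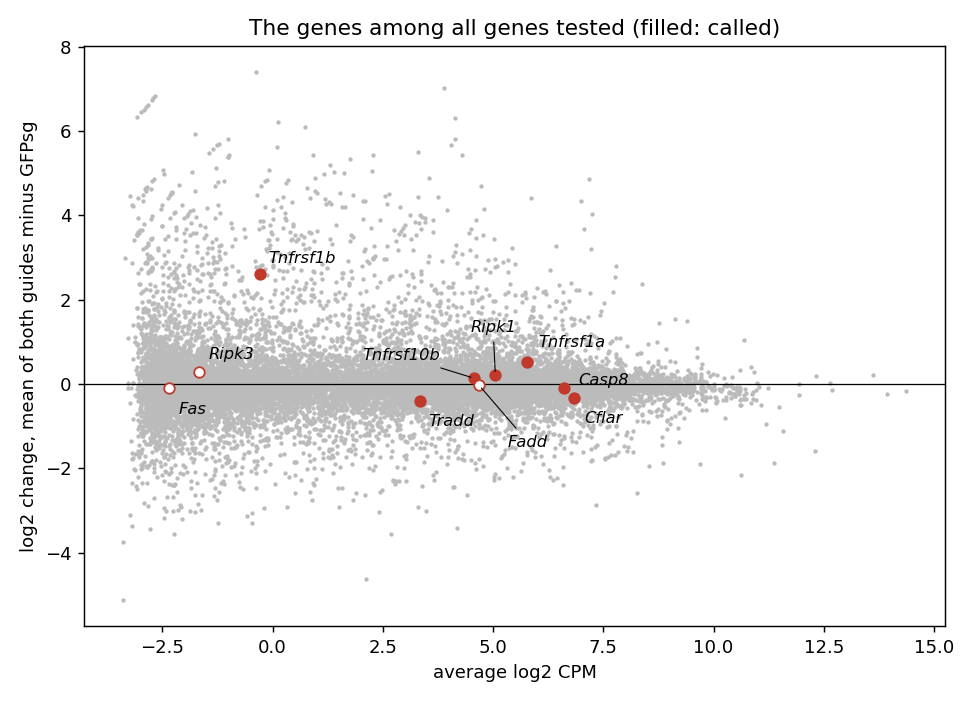
Grey points are all 17931 genes tested, with average log2 CPM on the horizontal axis and the log2 change of the mean of both guides minus GFPsg on the vertical axis. The 10 genes are marked, filled where called, and apart from Tnfrsf1b at 2.61 they lie between -0.40 and 0.53.

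The rest of the pathway was read from 6 lists with 70 genes, of which 60 could be tested. In the main comparison 31 of the 60 were called higher and 14 lower, with a median log2 change of 0.14, against -0.02 over all genes tested. Tnfsf14, Tnfsf15 and Ptpn13 had no read in any library. Over all genes tested the shares were 24.7% higher and 26.3% lower, which is also the background for each list below. Over the 60 genes the shares were 51.7% higher and 23.3% lower. Tnfsf10, Tnfrsf14, Zbp1 and Faim2 reached the filter's minimum in no GFPsg library and passed it through the libraries labelled knockout alone. They had to differ, so counts and medians of tested genes, here and for the lists that hold any of them, support no direction. The TNF receptor complex list and the caspase and mitochondrial arm do not hold any of them. All lists were chosen with earlier results known, so no direction is drawn from their counts either.

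Of 8 ligand genes, 2 could be tested and both rose. Tnfsf10, which encodes TRAIL, had 50, 27 and 47 reads with guide 1, 29, 29 and 46 reads with guide 2 and 6, 5 and 0 reads in GFPsg. The counts were low in all groups (log2 change 3.22 ± 0.51 SE). Tnfsf10 passed the filter through the libraries labelled knockout alone, so it had to differ and its rise is no support. Tnfsf12, encoding the ligand TWEAK, averaged 0.893 ± 0.0844 CPM with guide 1, 1.09 ± 0.118 CPM with guide 2 and 0.610 ± 0.124 CPM in GFPsg (SD, n = 3; log2 change 0.69, edgeR adjusted p = 0.006). Tnf summed to 8 reads with guide 1, 15 reads with guide 2 and 2 reads in GFPsg, and Fasl never exceeded 1 read, so both fell under the filter.

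Of 11 other receptors and decoys, 9 could be tested, 6 rose and 1 fell, with a median log2 change of 0.99. Tnfrsf12a, the TWEAK receptor, averaged 162.3 ± 2.72 CPM with guide 1, 128.4 ± 4.06 CPM with guide 2 and 49.4 ± 1.51 CPM in GFPsg (SD, n = 3). It rose by 1.55 ± 0.04 on the log2 scale (SE; edgeR adjusted p = 1.05e-15), more than any of the 10 genes except Tnfrsf1b. Ltbr, the lymphotoxin beta receptor, rose by 0.99 ± 0.04 (edgeR adjusted p = 2.69e-12), and Tnfrsf23, a mouse TRAIL decoy receptor, by 1.46 ± 0.15 (edgeR adjusted p = 2.97e-07). The gene that fell was Tnfrsf25, at a log2 change of -1.13 ± 0.38 (edgeR adjusted p = 0.0194) and at most 31 reads a library. Tnfrsf25 was called lower with guide 1 (edgeR adjusted p = 0.0305) and was not called with guide 2 (edgeR adjusted p = 0.0795). Ngfr, another receptor of this list, rose by 0.99 ± 0.14 (edgeR adjusted p = 1.52e-05) and was called higher with each guide.

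The TNF receptor complex list holds ubiquitin ligases, deubiquitinases and kinases that act on or below RIPK1. Of its 24 genes, 23 could be tested, 12 rose and 7 fell, with a median log2 change of 0.13. Cyld, the deubiquitinase that trims ubiquitin chains from RIPK1, averaged 81.2 ± 2.22 CPM with guide 1, 78.7 ± 4.79 CPM with guide 2 and 41.7 ± 1.71 CPM in GFPsg (SD, n = 3) and rose by 0.94 ± 0.04 on the log2 scale (SE; edgeR adjusted p = 8.14e-12). Mapkapk2, encoding the kinase MK2 that phosphorylates RIPK1, rose by 0.39 ± 0.04 (edgeR adjusted p = 5.76e-08). Ikbke, an IKK-related kinase gene, had a log2 change of -0.79 ± 0.07 (edgeR adjusted p = 1.03e-07).

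All 6 necroptosis partners could be tested, and 5 rose, with a median log2 change of 0.34. The sixth, Pgam5, had a log2 change of 0.12 (edgeR adjusted p = 0.0912). Zbp1, a sensor of Z-form nucleic acids that engages RIPK3, had 251, 209 and 237 reads with guide 1, 211, 164 and 172 reads with guide 2 and 2, 6 and 5 reads in GFPsg. It was close to undetected in GFPsg and seen in every library labelled knockout (log2 change 5.42 ± 0.25 SE). Zbp1 passed the filter through the libraries labelled knockout alone, so it had to differ and adds no support to the count of this list. Tlr3, a receptor for double-stranded RNA, rose by 0.99 ± 0.05 (edgeR adjusted p = 9.11e-11). Mlkl, the executioner of necroptosis, averaged 86.5 ± 1.67 CPM with guide 1, 82.5 ± 1.94 CPM with guide 2 and 69.5 ± 1.96 CPM in GFPsg (SD, n = 3; log2 change 0.28, edgeR adjusted p = 2.33e-06). The others called were Ticam1, the adaptor TRIF of Tlr3, at 0.40 (edgeR adjusted p = 2.45e-05) and the phosphatase gene Ppm1b at 0.10 (edgeR adjusted p = 0.0255).

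The caspase and mitochondrial arm, with 13 genes all tested, had 3 that rose and 6 that fell, and a median log2 change of -0.05. Bid, which caspase-8 cleaves to reach mitochondria, averaged 26.9 ± 0.936 CPM with guide 1, 25.2 ± 0.576 CPM with guide 2 and 16.7 ± 0.0886 CPM in GFPsg (SD, n = 3) and rose by 0.64 ± 0.04 on the log2 scale (SE; edgeR adjusted p = 1.76e-09). Bak1, a pore-forming BCL-2 family gene, rose by 0.12 ± 0.04 (edgeR adjusted p = 0.0138). Apaf1, the scaffold of the apoptosome, averaged 54.1 ± 1.71 CPM with guide 1, 62.0 ± 4.49 CPM with guide 2 and 83.2 ± 1.60 CPM in GFPsg, a log2 change of -0.52 ± 0.04 (edgeR adjusted p = 1.21e-08).

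Of 8 modulators of the death-inducing signalling complex (DISC), 7 could be tested and 3 rose, with a median log2 change of 0.16. Pea15a, whose product binds FADD and caspase-8, averaged 169.2 ± 1.57 CPM with guide 1, 153.2 ± 3.53 CPM with guide 2 and 56.5 ± 1.90 CPM in GFPsg (SD, n = 3) and rose by 1.51 ± 0.04 on the log2 scale (SE; edgeR adjusted p = 9.32e-16). Daxx, a FAS-binding and chromatin protein gene, rose by 0.41 ± 0.05 (edgeR adjusted p = 9.81e-07). Faim2, a FAS inhibitor known mainly from neurons, had 7 to 23 reads with guide 1, 7 to 14 reads with guide 2 and 1 or 2 reads in GFPsg. Faim2 passed the filter through the libraries labelled knockout alone and so had to differ.

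**Figure D5:**
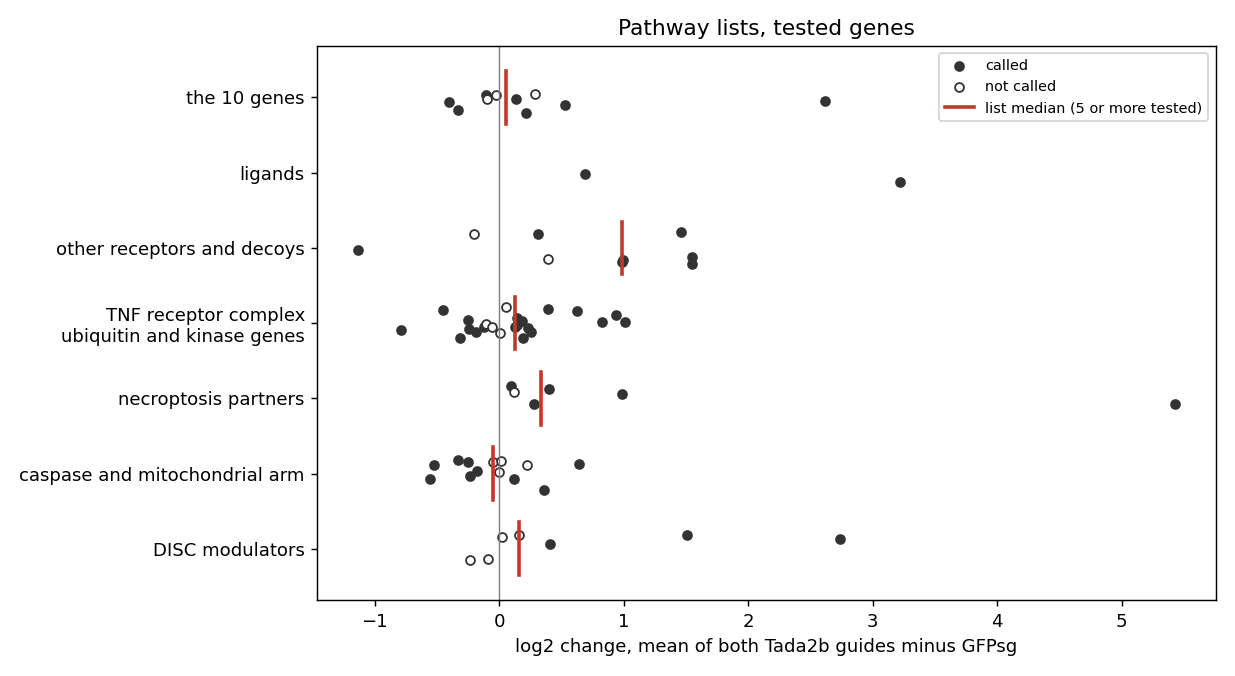
Each point is the log2 change of 1 tested gene, mean of both guides minus GFPsg, in the 10 genes and 6 pathway lists, with the median marked for lists of at least 5 tested genes. Among necroptosis partners Zbp1 is highest at 5.42, but it passed the filter through the libraries labelled knockout alone and had to differ. Pgam5 of that list was not called. The caspase and mitochondrial arm lies on both sides of 0 with a median of -0.05. No direction is drawn from the lists.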

How the data were processed

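RNA-seq of 9 B16F10 libraries, 3 per guide, was analysed as deposited. The authors deposited raw counts for each gene and library, as whole numbers. Per the submitters' processing notes, bcl2fastq, HISAT2 and HTSeq were used with mm10. Versions, annotation release and strand setting are not given in the sources used here. By HTSeq's default, reads with several alignments are not counted, which can lower genes that have close copies. No row held a total or unassigned class, and 0 columns were left unmapped.

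From the deposited counts, symbols, coordinates and exon lengths were taken from GENCODE M21 (54723 of 54752 identifiers matched). Genes were filtered with filterByExpr (count minimum 10, keeping 17931 genes and 99.97% of counts), scaled by TMM and tested with the quasi-likelihood F test of edgeR 4.0.16 in R 4.3.3, in 1 fit of 3 groups, with Benjamini-Hochberg adjustment over all genes. The SE was obtained by dividing the absolute log2 change by the root of F. Replicate libraries were not duplicates (chi-square per degree of freedom 7.12 to 22.7), with a common biological coefficient of variation of 0.0526. The pipeline was tested on simulated data with few genes changed and no replicate effect. Far more genes were called in these data, so that test does not speak for the choice of scaling.

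The members, lists, motifs and markers were chosen with earlier results of these data known. Beside the 10 genes and Tada2b, the 3 tested genes with the lowest p in each pathway list were named, together with list genes at 0 in every library. A gene picked by that rule is not reported here. Tnf, Fasl, Tnfrsf25, Ngfr, Ticam1, Ppm1b, Pgam5, Bak1, Tnfrsf14, Serpinb6a and the marker genes given singly were named after their values were seen. Alternatives were DESeq2 1.42.0, limma-voom (limma 3.58.1), other scalings and filters, a replicate block, leaving out each library and, added after seeing the data, glmTreat and transcript length.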

Additional observations from a re-analysis of the deposited data

Results flagged for a closer look

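In total 3 of 60 tested genes of the wider pathway lists (5%, where 3.68% of all genes tested were called) differed between the guides by the edgeR test of guide 2 minus guide 1, although both guides carry the same knockout label. Tnfrsf12a had a log2 difference of -0.338 (edgeR adjusted p = 4.42e-05), with means of 128.4 CPM with guide 2 and 162.3 CPM with guide 1. Apaf1 had a log2 difference of 0.196 (edgeR adjusted p = 0.0348), with 62.0 CPM with guide 2 and 54.1 CPM with guide 1. Pea15a had a log2 difference of -0.143 (edgeR adjusted p = 0.0446), with 153.2 CPM with guide 2 and 169.2 CPM with guide 1. In each of these genes guide 1 lay farther from GFPsg than guide 2. The targeted gene itself also differed between the guides. Tada2b had a log2 difference of -0.282 (edgeR adjusted p = 0.00671), with 27.0 CPM with guide 2 and 32.8 CPM with guide 1, against 26.6 CPM in GFPsg.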

How the results depend on the processing

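Over 16 alternatives to the main comparison, Tnfrsf1a (log2 change 0.51 to 0.61), Tnfrsf1b (2.44 to 2.95), Tradd (-0.43 to -0.32) and Cflar (-0.34 to -0.25) kept their direction and call in all of them. Ripk1 (0.20 to 0.30) lost its call with glmTreat alone, and Tnfrsf10b with glmTreat and without GFPsg replicate 3. With glmTreat at 1.2-fold, 4338 genes and 4 of the 10 were called. Leaving out 1 library gave 5 to 7 of the 10 genes for both guides together, 5 with guide 1 in each case and 5 to 7 with guide 2, where 44.6% to 50.3%, 42.4% to 49.3% and 39.1% to 43.8% of all genes tested were called in the same fits. In guide 2 minus guide 1, 1070 genes were called with no filter on low counts, 335 to 808 without 1 library, and 980 by DESeq2, against 660.

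The labels do not say that replicate numbers pair the libraries, and the main fit held no replicate block. Correlations of same-numbered deviations were low (-0.0121 to 0.1), though all 9 libraries correlated best with their own number. A shared effect of replicate number may thus be present, and its cause was not tested. With the replicate block, 1705 genes were called in guide 2 minus guide 1, and 1 of the 10, Cflar (0.12, edgeR adjusted p = 0.0199). The block kept the number of the 10 genes called in the other comparisons.

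Directions that turned were all of values not called. Scaled by library totals alone, Fadd was at 0.057 for both guides, 0.066 with guide 1 and 0.048 with guide 2, Casp8 at 0.013 with guide 1 and Fas at 0.0030 with guide 2. Guide 1 Tnfrsf10b was called in that setting (0.19, edgeR adjusted p = 0.0119). In guide 2 minus guide 1, Ripk3 was at 0.21 by limma-voom and 0.030 with the replicate block. Without 1 library, Fas ranged over -0.30 to 0.11 for both guides, -0.51 to 0.088 with guide 1, -0.28 to 0.13 with guide 2 and -0.13 to 0.44 between guides. Fadd ranged over -0.047 to 0.0013 for both guides, -0.036 to 0.012 with guide 1 and -0.032 to 0.0028 between guides. Ripk3 ranged over -0.26 to 0.70 with guide 1 and -0.43 to 0.54 between guides. Between guides, Tnfrsf1a ranged over -0.024 to 0.040, Tnfrsf1b over -0.30 to 0.053 and Tradd over -0.037 to 0.060. The cause was not tested. Fas had 8 to 19 reads a library and Ripk3 8 to 40. For the wider lists only scaling by library totals alone was rerun, and it called 2, 8, 16, 6, 9 and 4 genes in the order of the report.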
